A study of Mus musculus with 13 samples.

Results

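Genes of rod response recovery and calcium feedback were examined in retinae of mice lacking PGC-1α (KO) and of wild type mice (WT), after light exposure and in the dark. They were taken as the probe sets annotated with exactly 1 of the symbols Sag, Grk1, Rcvrn, Rgs9, Rgs9bp, Gnb5, Guca1a, Guca1b, Gucy2e and Slc24a1. Of these 10 genes 9 had such a probe set, 1 each, among 19937 genes measured in this way. Guca1b had none and was not analysed here. The 9 lie on autosomes, Sag on chromosome 1, Rgs9bp on 7, Grk1 on 8, Gnb5 and Slc24a1 on 9, Rcvrn, Rgs9 and Gucy2e on 11 and Guca1a on 17. The series holds 13 Affymetrix Mouse Gene 1.0 ST arrays of whole retina, 1 per mouse, with 3 of KO light, 3 of WT light, 3 of KO dark and 4 of WT dark. KO mice were C57 BL/6 mice with a global deletion of PGC-1α, so that every cell type of the body lacked it, and WT mice were C57 BL/6 NRj. The methods give male mice of 6 to 13 weeks, dark adapted for 16 h, with 15000 lux for 2 h under dilated pupils and a night of recovery in darkness for the light groups. By the labels the light groups were male and the dark groups female except WT dark 4, a male. Light and sex can therefore not be told apart in the comparisons of light with dark. The same holds for the difference of the light responses of KO and WT.

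A rod answers a photon by shutting its cation channels, and it can answer again only after each activated step has been switched off. Rhodopsin kinase (Grk1) phosphorylates activated rhodopsin, arrestin-1 (Sag) then caps it, and recoverin (Rcvrn) holds the kinase back while calcium is high. Transducin is switched off by the GTPase-accelerating complex of Rgs9, its partner Gnb5 and the membrane anchor Rgs9bp. When the channels shut, calcium falls because the exchanger Slc24a1 goes on removing it, and the guanylate cyclase-activating proteins (Guca1a, Guca1b) then stimulate guanylate cyclase (Gucy2e) to restore cGMP. In the mouse several of these proteins also serve cones.

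RefSeq promoter windows (GRCm38.p6) were at hand for 7 of the 10 genes, and the 250 bases before the start site are shown for 4 of them. These are arrestin-1, which was called in no comparison, and the calcium sensor, the cyclase and the exchanger, which lie in the feedback arm. Capitals mark TAATCC, the core bound by the photoreceptor factor CRX, and TGCTGA, the core bound by the rod factor NRL, on either strand, and the letters of the motifs do not overlap here.
Sag, chr1:87803430-87803679, plus strand: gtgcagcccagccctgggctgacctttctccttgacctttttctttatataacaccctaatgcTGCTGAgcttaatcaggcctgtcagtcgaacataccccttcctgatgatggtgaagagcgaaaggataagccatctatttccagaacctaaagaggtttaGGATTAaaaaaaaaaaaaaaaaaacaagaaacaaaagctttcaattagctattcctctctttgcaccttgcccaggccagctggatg
Guca1a, chr17:47400607-47400856, minus strand: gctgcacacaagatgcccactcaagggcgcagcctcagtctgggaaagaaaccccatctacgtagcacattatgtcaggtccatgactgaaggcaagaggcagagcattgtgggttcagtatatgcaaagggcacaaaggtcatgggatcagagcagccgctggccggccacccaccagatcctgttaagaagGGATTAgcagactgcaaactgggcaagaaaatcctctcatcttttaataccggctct
Gucy2e, chr11:69237023-69237272, minus strand: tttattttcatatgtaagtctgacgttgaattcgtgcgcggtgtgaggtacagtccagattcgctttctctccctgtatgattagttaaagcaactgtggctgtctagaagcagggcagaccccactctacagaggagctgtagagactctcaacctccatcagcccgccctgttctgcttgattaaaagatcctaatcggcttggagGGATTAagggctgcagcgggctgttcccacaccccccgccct
Slc24a1, chr9:64951621-64951870, minus strand: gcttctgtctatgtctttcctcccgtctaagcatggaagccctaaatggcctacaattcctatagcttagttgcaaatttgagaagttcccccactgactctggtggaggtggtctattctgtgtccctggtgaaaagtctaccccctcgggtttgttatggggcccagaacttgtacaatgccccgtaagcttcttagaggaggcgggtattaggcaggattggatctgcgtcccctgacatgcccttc

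A CRX core stood before the start of 4 of the 7 genes, at 82 bases in Sag, 52 in Guca1a, 37 in Gucy2e and 1 in Gnb5, and in all 4 on the strand opposite to the gene. Of 32851 RefSeq mouse windows of the same length 6.25% held one. An NRL core was found in 2 of the 7, at 182 bases in Sag and at 142 bases in Rgs9, against 16.1% of all windows. Neither was found before Grk1 or Slc24a1. These are matches of letters, and binding was not measured.

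Values are log2 intensities of the authors' normalized probe set signals. A difference is the mean of the first group minus that of the second, and a gene counts as called where its Benjamini-Hochberg p over the 19937 genes was under 0.05 and its ratio was 1.2 or more, or 0.87 or less. One limma model with 4 groups of 3 arrays was fitted, without WT dark 4, which differed in sex from the other WT dark mice and was the fourth array beside groups of 3. Levels are not compared between genes, because probe sets differ in brightness for reasons other than RNA amount.

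The arrays WT dark 4 and KO light 3 stood apart from their groups. Over all genes WT dark 4 correlated with KO light 1 and 2 at a mean Pearson r of 0.997 and with the other WT dark arrays at 0.989, while KO light 3 correlated with KO light 1 and 2 at 0.992 and with WT dark 1 to 3 at 0.997. Xist was between 4.67 and 5.31 in the 7 arrays labelled male and between 11.86 and 12.02 in the 6 labelled female, so the sex labels held for both arrays. Ppargc1a, which encodes PGC-1α, was at 9.96 to 10.25 in KO light, 9.85 to 9.99 in WT light, 10.19 to 10.40 in KO dark and 10.01 to 10.03 in WT dark 1 to 3. This does not check the genotype, since no source used here says whether the probes lie in the deleted part. The rod transducin gene Gnat1 was at 13.62 to 13.80 in all 13 arrays, lowest in WT dark 4. The mean of 6 rod markers, Gnat1 among them, varied more. It was 11.76 in WT dark 4 and 11.80, 12 and 12.08 in KO light. In WT light it was 12.14 to 12.21, in KO dark 12.13 to 12.14 and in WT dark 1 to 3 12.14 to 12.20. Because of WT dark 4 and KO light 3, the comparisons of KO light are given in several ways. These are as labelled, with WT dark 4 in place of KO light 3 (the exchanged array), and without KO light 3. The exchange was proposed, and KO light 3 singled out, from these same values. What either setting adds is therefore not independent of them. Both settings share KO light 1 and 2, so they are not independent of each other either.

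As labelled, differences were small. Rgs9bp was lower in KO light than in WT light and higher in WT light than in WT dark, and it alone was called. With the exchanged array 7 of the 9 were called lower in KO light than in WT light, where 3.66% of all genes were, and 6 of the 9 were called lower than in KO dark, where 6.30% of all genes were, with log2 differences between -0.52 and -0.22. In the dark no gene of the group was called between KO and WT.

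**Figure D1:**
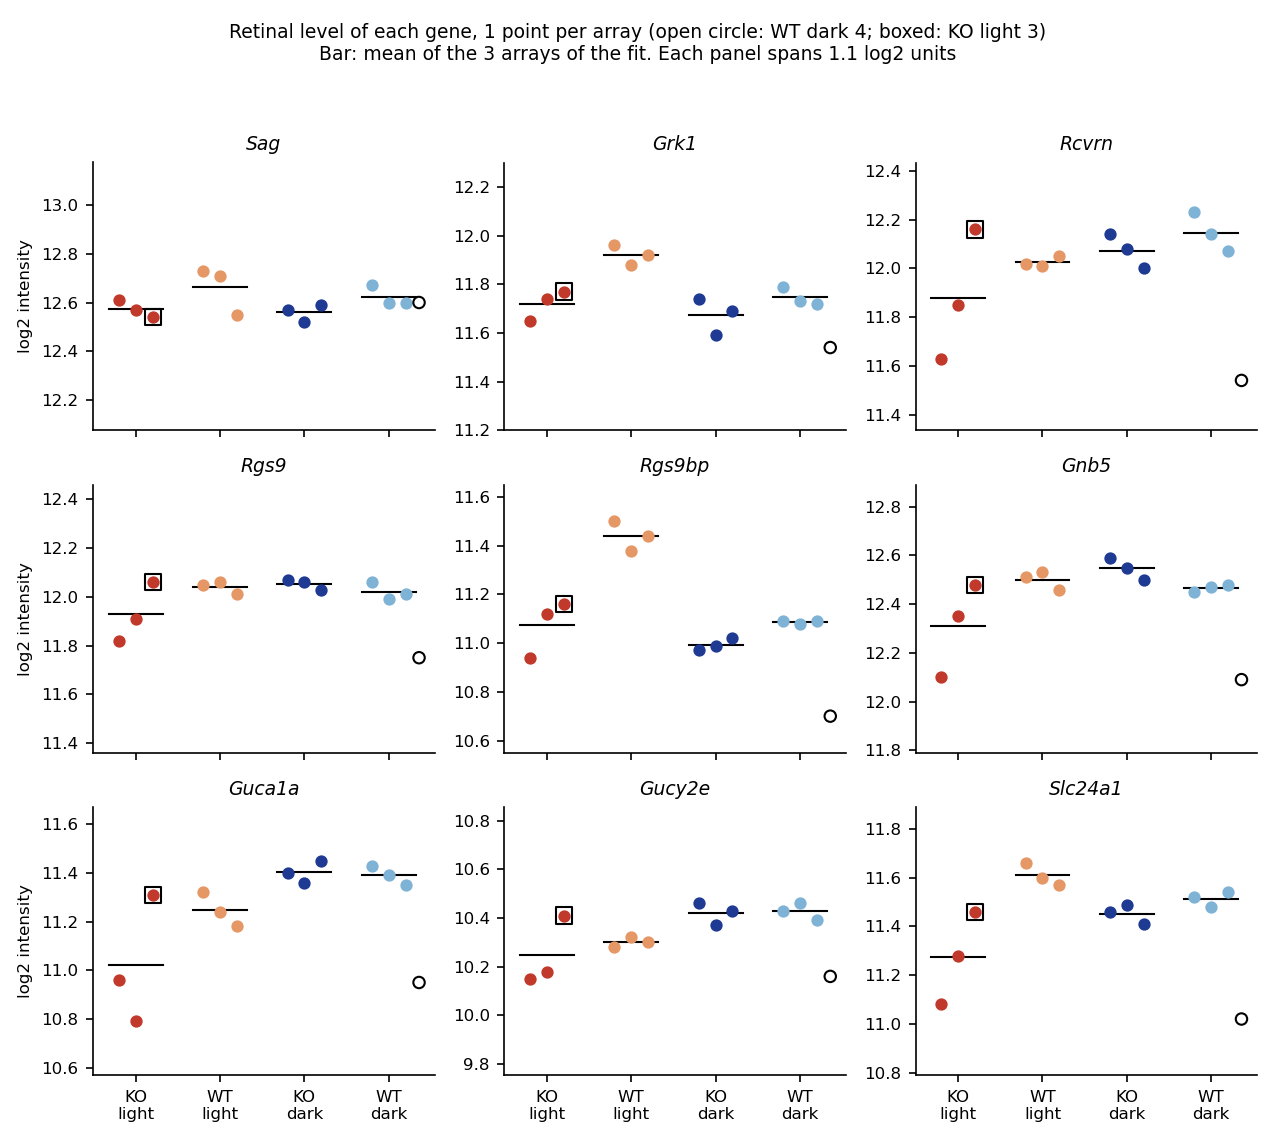
Log2 intensity of the 9 genes (vertical axis) by group (horizontal axis), 1 point per array, bars at the mean of the 3 arrays fitted, KO light 3 boxed and WT dark 4 as an open circle. For 8 genes WT dark 4 lies below every other WT dark array, whereas for Sag it lies among them, and KO light 3 lies above KO light 1 and 2 for every gene but Sag.

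Of the genes that switch off rhodopsin, Sag had the narrowest range over the 13 arrays. Its level was 12.61, 12.57 and 12.54 in KO light, 12.73, 12.71 and 12.55 in WT light, 12.57, 12.52 and 12.59 in KO dark, and 12.67, 12.60 and 12.60 in WT dark, with 12.60 in WT dark 4. KO dark lay below WT dark without overlap, a difference of -0.06 (interval -0.18 to 0.05) that was not called. All other pairs of groups overlapped. KO light differed from WT light by -0.09 (SE 0.05, adjusted p = 0.505, limma), with a 95% interval of -0.21 to 0.03, by -0.07 (interval -0.18 to 0.04, adjusted p = 0.411) with the exchanged array, and by -0.07 (adjusted p = 0.535) without KO light 3. From KO dark it differed by 0.01 as labelled and by 0.03 in both other settings, not called.

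Grk1 stood highest in light-exposed WT retinae. It was at 11.65, 11.74 and 11.77 in KO light, 11.96, 11.88 and 11.92 in WT light, 11.74, 11.59 and 11.69 in KO dark, and 11.79, 11.73 and 11.72 in WT dark, with 11.54 in WT dark 4. All WT light arrays lay above all arrays of the other groups. As labelled the difference of KO light from WT light was -0.20 (SE 0.05, adjusted p = 0.153) and that of WT light from WT dark 0.17 (SE 0.05, adjusted p = 0.145), neither called. Grk1 was called lower in KO light than in WT light once the array was exchanged (-0.28, SE 0.06, adjusted p = 0.00648) and also without KO light 3 (-0.23, SE 0.06, adjusted p = 0.0355). Against KO dark the difference was 0.04 as labelled (interval -0.07 to 0.16), -0.03 with the exchanged array (interval -0.15 to 0.09) and 0.02 without KO light 3. With or without the exchange the KO light arrays overlapped both dark groups.

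Rcvrn spread more in KO light than in any other group. Its levels were 11.63, 11.85 and 12.16 in KO light, against 12.02, 12.01 and 12.05 in WT light, 12.14, 12.08 and 12 in KO dark and 12.23, 12.14 and 12.07 in WT dark, with 11.54 in WT dark 4, the lowest of all 13 arrays. KO light 3 lay within the range of WT dark and KO light 1 and 2 below every array of the other groups in the fit. As labelled the SD of KO light was 0.26 and no difference was called (-0.15 from WT light, adjusted p = 0.581, and -0.19 from KO dark, adjusted p = 0.424). Once the array was exchanged, Rcvrn was lower than in WT light (-0.35, SE 0.07, adjusted p = 0.00686) and than in KO dark (-0.40, SE 0.07, adjusted p = 0.00184). Leaving out KO light 3 gave -0.29 (adjusted p = 0.0364) and -0.33 (adjusted p = 0.0102), both called.

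Among the genes that switch off transducin, Rgs9bp gave the only calls of the 9 genes as labelled. It was at 10.94, 11.12 and 11.16 in KO light, 11.50, 11.38 and 11.44 in WT light, 10.97, 10.99 and 11.02 in KO dark, and 11.09, 11.08 and 11.09 in WT dark, with 10.70 in WT dark 4. The WT light arrays stood above all others, and KO light overlapped both dark groups. The difference of KO light from WT light was -0.37 (SE 0.06, ratio 0.773, adjusted p = 0.0344, limma) and that of WT light from WT dark 0.36 (SE 0.06, ratio 1.28, adjusted p = 0.0331). KO light differed from WT light by -0.52 (SE 0.08, adjusted p = 0.00123) with the exchanged array and by -0.41 (SE 0.06, adjusted p = 0.00223) without KO light 3. In KO mice the difference of light from dark was 0.08 (interval -0.05 to 0.20), and the light response of KO minus that of WT was -0.28 (SE 0.08, adjusted p = 0.452), so a difference between the genotypes in this response was not called. Both calls were close to the threshold. The call between KO light and WT light was lost when any 1 array other than KO light 1 or KO light 3 was left out, and its adjusted p ran between 0.00123 and 0.489 over all alternatives. The rise in WT light was lost when any 1 KO dark, WT dark or WT light array was left out, with adjusted p between 0.00343 and 0.118 over all alternatives.

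Rgs9, the catalytic member of the complex, was at 11.82, 11.91 and 12.06 in KO light, 12.05, 12.06 and 12.01 in WT light, 12.07, 12.06 and 12.03 in KO dark, and 12.06, 11.99 and 12.01 in WT dark, with 11.75 in WT dark 4. Gnb5, which stabilizes it, was at 12.10, 12.35 and 12.48 in KO light, 12.51, 12.53 and 12.46 in WT light, 12.59, 12.55 and 12.50 in KO dark, and 12.45, 12.47 and 12.48 in WT dark, with 12.09 in WT dark 4. For both genes KO light 1 and 2 lay below every array of the other groups in the fit and KO light 3 among them. As labelled the differences of KO light from WT light were -0.12 for Rgs9 (adjusted p = 0.429) and -0.19 for Gnb5 (adjusted p = 0.336), and those from KO dark -0.12 (adjusted p = 0.361) and -0.23 (adjusted p = 0.229). Both were called lower with the exchanged array, Rgs9 by -0.22 (SE 0.05, adjusted p = 0.00848) and Gnb5 by -0.32 (SE 0.06, adjusted p = 0.00526), and likewise against KO dark (Rgs9 -0.23, adjusted p = 0.00369, and Gnb5 -0.36, adjusted p = 0.00126). Without KO light 3 Gnb5 was called at -0.27 from WT light (adjusted p = 0.031) and -0.32 from KO dark (adjusted p = 0.0081), whereas Rgs9, at -0.18 and -0.19 with ratios of 0.883 and 0.877, did not reach the ratio limit. The difference of Rgs9bp from KO dark was -0.08 with the exchanged array (interval -0.25 to 0.09) and 0.03 without KO light 3, so of the 3 genes of the complex it was the one not called there with the exchanged array.

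In the feedback arm Guca1a had the largest difference between KO light and KO dark of the 9 genes. It was at 10.96, 10.79 and 11.31 in KO light, 11.32, 11.24 and 11.18 in WT light, 11.40, 11.36 and 11.45 in KO dark, and 11.43, 11.39 and 11.35 in WT dark, with 10.95 in WT dark 4. KO light lay below both dark groups without overlap, and WT light did so too. As labelled the difference of KO light from KO dark was -0.38 (SE 0.10, interval -0.60 to -0.17, adjusted p = 0.161), not called. The exchanged array gave -0.50 (SE 0.06, ratio 0.706, adjusted p = 5.52e-05), and leaving out KO light 3 gave -0.53 (SE 0.06, adjusted p = 0.000248). From WT light KO light differed by -0.23 as labelled (interval -0.45 to -0.01, adjusted p = 0.36), by -0.35 with the exchanged array (SE 0.06, adjusted p = 0.00154) and by -0.37 without KO light 3 (SE 0.06, adjusted p = 0.00485). In WT mice the difference of light from dark was -0.14 (interval -0.36 to 0.08, adjusted p = 0.494).

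Gucy2e, the cyclase that Guca1a regulates, was lower in light in both genotypes by its means. Its levels were 10.15, 10.18 and 10.41 in KO light, 10.28, 10.32 and 10.30 in WT light, 10.46, 10.37 and 10.43 in KO dark, and 10.43, 10.46 and 10.39 in WT dark, with 10.16 in WT dark 4. WT light lay below both dark groups without overlap, while KO light 3 lay within them. The difference of KO light from KO dark was -0.17 (SE 0.06, adjusted p = 0.269) as labelled, -0.26 (SE 0.04, adjusted p = 0.000742) with the exchanged array and -0.25 (SE 0.05, adjusted p = 0.00415) without KO light 3. Against WT light it was -0.05 (adjusted p = 0.774) as labelled. The exchanged array gave -0.14 there (SE 0.04, adjusted p = 0.0432), with a ratio of 0.909 that did not reach the limit of 0.87, and leaving out KO light 3 gave -0.14 (adjusted p = 0.118). The difference of WT light from WT dark was -0.12 (SE 0.06, adjusted p = 0.363).

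Slc24a1, the sodium, calcium and potassium exchanger of the rod outer segment, was at 11.08, 11.28 and 11.46 in KO light, 11.66, 11.60 and 11.57 in WT light, 11.46, 11.49 and 11.41 in KO dark, and 11.52, 11.48 and 11.54 in WT dark, with 11.02 in WT dark 4. KO light lay below WT light without overlap, and KO light 3 within the range of KO dark. The difference of KO light from WT light was -0.34 (SE 0.08, interval -0.51 to -0.17, adjusted p = 0.121) as labelled. Exchanging the array gave -0.49 (SE 0.06, ratio 0.714, adjusted p = 0.000419), the lowest adjusted p of the 9 genes in this comparison, and leaving out KO light 3 gave -0.43 (SE 0.06, adjusted p = 0.00231). From KO dark KO light differed by -0.18 as labelled (interval -0.35 to -0.01, adjusted p = 0.322), by -0.33 with the exchanged array (SE 0.06, adjusted p = 0.00201) and by -0.28 without KO light 3 (SE 0.06, adjusted p = 0.0115).

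**Figure D2:**
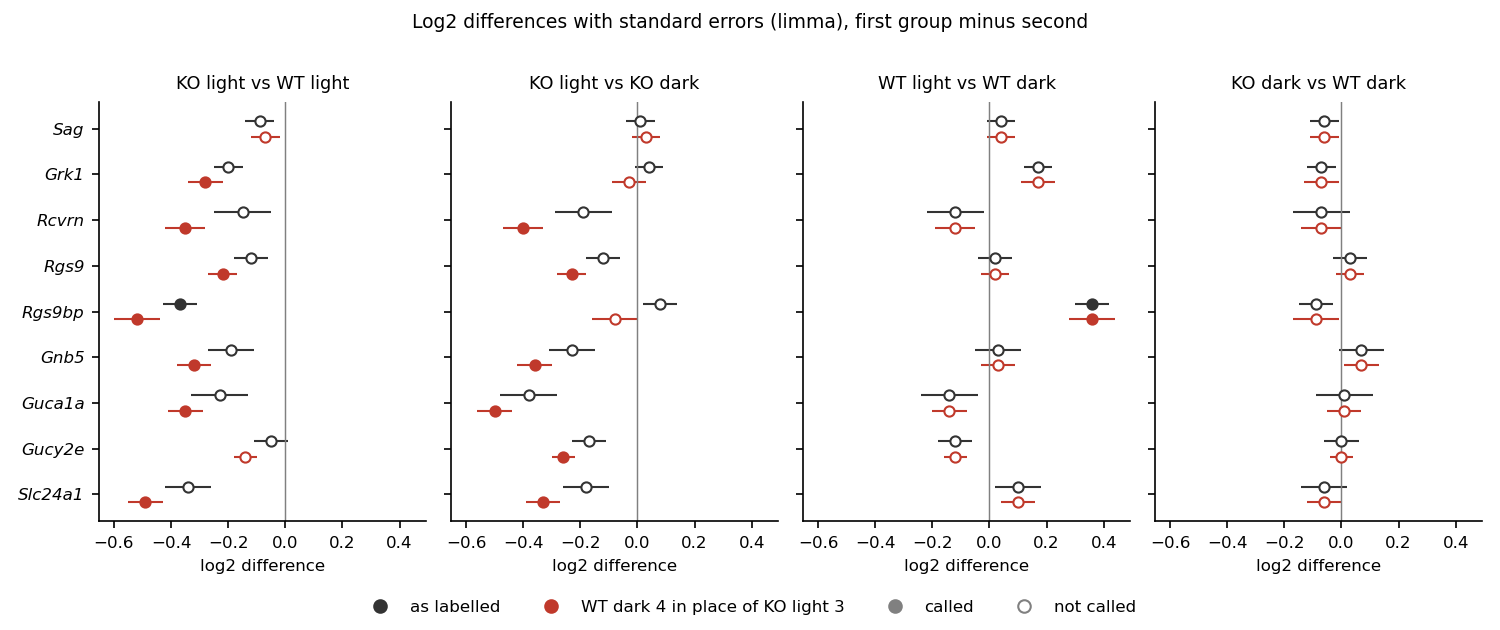
Log2 difference (horizontal axis) with its standard error from limma for the 9 genes (vertical axis) in 4 comparisons, as labelled in black and with WT dark 4 in place of KO light 3 in red, filled points being called. As labelled only Rgs9bp is filled, in 2 comparisons, and with the exchanged array 7 genes are filled in KO light vs WT light and 6 in KO light vs KO dark.

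Counted over the group, 1 of 9 genes was called lower in KO light than in WT light as labelled, where 0.0552% of all genes were called lower. All 9 means were lower in KO light, against 56.5% of all genes, with a median difference of -0.19 against -0.01 over all genes. At an unadjusted p under 0.05 with the ratio limits kept, Grk1, Rgs9bp, Guca1a and Slc24a1 were lower, 4 of 9, where 2.69% of all genes were. Without KO light 3 the calls rose to 6 of 9 (Grk1, Rcvrn, Rgs9bp, Gnb5, Guca1a and Slc24a1) with 2.04% of all genes called lower, and with the exchanged array to 7 of 9 with 3.66% of all genes called lower and a median of -0.32. By role with the exchanged array these were 2 of 3 genes acting on rhodopsin, 3 of 3 acting on transducin, 1 of 2 of cGMP resynthesis and the exchanger.

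Against KO dark, 0 of 9 genes were called in KO light as labelled by limma, with 0.100% of all genes called in either direction. At an unadjusted p under 0.05 with the ratio limits Gnb5 and Guca1a were lower, 2 of 9, where 2.52% of all genes were. With each gene's variance taken as measured none was called either. Without KO light 3 there were 5 of 9 lower (Rcvrn, Gnb5, Guca1a, Gucy2e and Slc24a1) and 4.25% of all genes, and with the exchanged array 6 of 9, Rgs9 in addition, and 6.30% of all genes. Sag, Grk1 and Rgs9bp were called in none of these 3 settings, with differences between -0.08 and 0.08. The comparisons of KO light with WT light and with KO dark share the KO light arrays, so that their results are not independent.

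In WT mice 1 of 9 genes, Rgs9bp, was higher in light than in dark, where 0.171% of all genes were called higher. The same gene was called with the exchanged array, where 2.13% of all genes were called higher, both WT groups being the same arrays and only the common estimate of the spread differing. The other 8 genes had differences between -0.14 and 0.17. Grk1, Rgs9bp and Slc24a1 had all WT light arrays above all WT dark arrays of the fit, and Guca1a and Gucy2e all below. Of these only Rgs9bp was called. How many of all genes separate in this way was not counted, so no conclusion is drawn from it.

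Between KO dark and WT dark 0 of 9 genes were called by limma, with differences of -0.09 to 0.07 and adjusted p between 0.867 and 0.999, where 0.0752% of all genes were called. None passed an unadjusted p under 0.05 with the ratio limits either, where 2.11% of all genes did, and none with variances as measured. The exchange, which leaves both dark groups as they were, gave no call among the 9 either, against 0.878% of all genes. The widest 95% interval, that of Rcvrn, ran from -0.29 to 0.15. Sag and Rgs9bp had all KO dark arrays below all WT dark arrays of the fit, and Gnb5 all above. The share of all genes separated in this way was not counted here either.

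The response to light in KO mice minus that in WT mice was negative for all 9 genes as labelled, against 55.7% of all genes. Light and sex changed together in both genotypes, so a sex difference that depends on genotype cannot be told apart here. The median was -0.15 against -0.02 over all genes. By limma 0 of 9 were called at an adjusted p under 0.05, where 0.0602% of all genes were. At an unadjusted p under 0.05 Rgs9bp (-0.28), Gnb5 (-0.26) and Slc24a1 (-0.28) were below 0, 3 of 9, where 4.04% of all genes were, and none was called with variances as measured. Without KO light 3 Guca1a alone was called (-0.39, SE 0.08, adjusted p = 0.0468), with 0.291% of all genes. With the exchanged array Slc24a1 (-0.43, SE 0.09, adjusted p = 0.0211), Guca1a (-0.36, SE 0.08, adjusted p = 0.0289) and Gnb5 (-0.39, SE 0.09, adjusted p = 0.0344) were called, 3 of 9 against 0.782% of all genes. Rgs9bp missed the threshold there (-0.43, SE 0.11, adjusted p = 0.061).

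**Figure D3:**
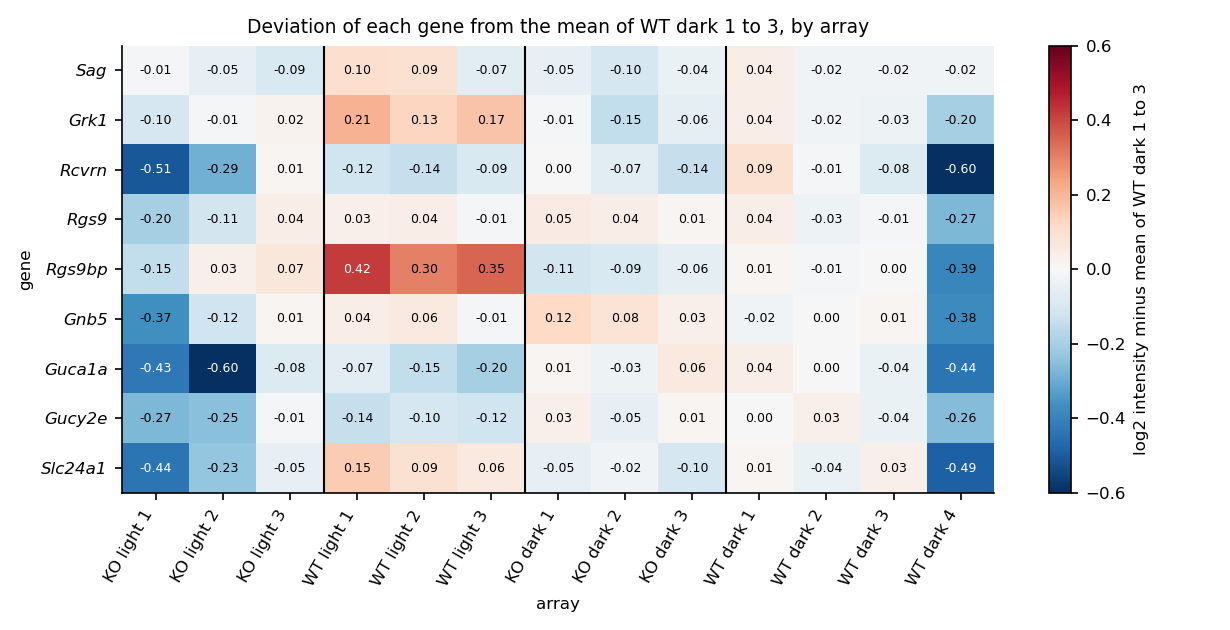
Log2 intensity of each gene (rows) in each array (columns) minus the mean of WT dark 1 to 3, blue below and red above it. KO light 1 and 2 and WT dark 4 carry the low values, with Rcvrn at -0.60 in WT dark 4 and Guca1a at -0.60 in KO light 2, and Rgs9bp stands out above in the WT light arrays.

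Taken by array, 9, 8 and 4 of the 9 genes lay below the mean of WT dark 1 to 3 in KO light 1, 2 and 3, with median deviations of -0.27, -0.12 and 0.01. In WT dark 4 all 9 lay below it with a median of -0.38. The WT light arrays had medians of 0.04, 0.06 and -0.01 and the KO dark arrays of 0.00, -0.05 and -0.04. Within KO light the low values thus lay in 2 of the 3 arrays.

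Rcvrn, Rgs9, Gnb5, Guca1a, Gucy2e and Slc24a1 correlated with each other at Pearson r between 0.644 and 0.963, the highest being that of Rgs9 with Gnb5. Guca1a and its target Gucy2e reached 0.92. Grk1 and Rgs9bp correlated with each other at 0.949, with Slc24a1 at 0.746 and 0.781, with Rgs9 at 0.568 and 0.588, and with Gucy2e at 0.167 and 0.115. Slc24a1 was closer to Grk1 and Rgs9bp than to Gucy2e (0.644) or Guca1a (0.706). It was closer still to Rgs9 (0.921), Gnb5 (0.906) and Rcvrn (0.858). Sag correlated with the other 8 at -0.128 to 0.516. These values describe 13 arrays that share the group differences and the arrays standing apart, and carry no test.

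Over all genes the pattern most like Rgs9 was that of Ppef2, a photoreceptor protein phosphatase (r = 0.983), and Ppef2 was also among the 3 nearest to Gnb5 (r = 0.975). Rcvrn was nearest to Fam161a, a ciliary protein of photoreceptors (r = 0.983), Gnb5 to Pitpnm3 (r = 0.983), Slc24a1 to Fam3c (r = 0.971) and Gucy2e to Mapre3 (r = 0.963). Grk1 and Rgs9bp both had the tetraspanin gene Tspan5 among their 3 nearest, at r = 0.957 and 0.938, besides each other. The nearest gene to Guca1a was Lbx1 (r = 0.948) and to Sag Laptm4b (r = 0.908), the lowest of these.

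The activation arm of the rod and other genes of photoreceptor shutoff, adaptation and calcium handling were set beside them from lists. As labelled none of the 8 measured activation genes and none of the 12 measured other genes was called in any comparison. In the exchanged setting 6 of 8 activation genes were called lower in KO light than in WT light, where 3.66% of all genes were, led by the channel subunits Cngb1 (-0.44, adjusted p = 0.000525) and Cnga1 (-0.40, adjusted p = 0.00232), the phosphodiesterase subunit Pde6b (-0.33) and the transducin subunit Gngt1 (-0.31). The median of the 8 was -0.16 as labelled and -0.28 with the exchanged array, against -0.19 and -0.32 for the 9 recovery genes. Of the 12 others 6 were called lower, led by the phosphatase Ppef2 (-0.56), cone arrestin Arr3 (-0.54), phosducin Pdc (-0.43) and the cyclase Gucy2f (-0.41). Against KO dark 5 of 8 and 6 of 12 were called lower, where 6.30% of all genes were, led by Cngb1 (-0.54), Cnga1 (-0.40), Pde6b (-0.31) and Gngt1 (-0.30) among the first and by Arr3 (-1.14), Ppef2 (-0.60), Gucy2f (-0.42) and Pdc (-0.41) among the second. In the difference of the light responses with the exchanged array Cngb1 (-0.36) and Pde6b (-0.34) were called of the activation genes, and Arr3 (-0.77), Ppef2 (-0.61) and Pdc (-0.46) of the others, where 0.782% of all genes were. Leaving out KO light 3 lowered these counts. It gave 4 of 8 and 5 of 12 lower than in WT light, with 2.04% of all genes, 4 of 8 and 5 of 12 lower than in KO dark, with 4.25%, and in the difference of the light responses Ppef2 alone (-0.50, adjusted p = 0.0401), with 0.291%.

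**Figure D4:**
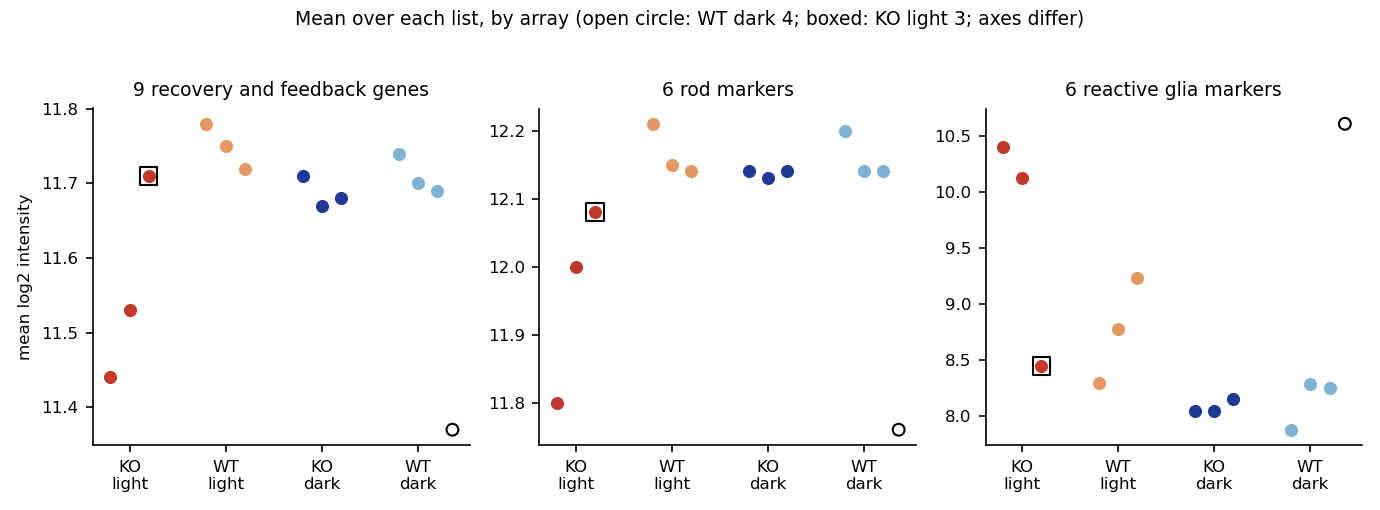
Mean log2 intensity over the 9 recovery and feedback genes, 6 rod markers and 6 reactive glia markers (vertical axes, which differ) by group, 1 point per array, KO light 3 boxed and WT dark 4 as an open circle. KO light 1 and 2 and WT dark 4 are low in the first and second panels and high in the third, at 10.40, 10.13 and 10.61 for reactive glia. In the second panel KO light 3, at 12.08, lies between these arrays and all the others.

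Markers of reactive glia, rods and cones, and some markers of other cells, differed in the same arrays as these genes. The mean of 6 reactive glia genes was 10.40, 10.13 and 8.45 in KO light, 8.30, 8.78 and 9.23 in WT light, 8.05, 8.05 and 8.15 in KO dark, and 7.88, 8.29 and 8.25 in WT dark, with 10.61 in WT dark 4. All 6 were called higher in KO light than in WT light and than in KO dark, both with the exchanged array and without KO light 3. With the exchange 1640 of the 19937 genes were called in either direction against WT light and 2653 against KO dark. Without KO light 3 these numbers were 1045 and 1981. With the exchange the differences from WT light were led by A2m (2.03), Lcn2 (1.92), Serpina3n (1.84) and Gfap (1.35), and those from KO dark by Serpina3n (2.92), A2m (2.47), Gfap (2.39) and Lcn2 (2.20). The mean of 6 rod markers, 3 of them also activation genes, was 11.80, 12 and 12.08 in KO light, 12.14 to 12.21 in WT light, 12.13 to 12.14 in KO dark and 12.14 to 12.20 in WT dark, with 11.76 in WT dark 4. Cone markers were at 9.70, 10.03 and 10.28 in KO light, 10.13 to 10.21 in WT light, 10.26 to 10.31 in KO dark and 10.31 to 10.35 in WT dark, with 9.74 in WT dark 4. In the comparison with WT light with the exchange 3.66% of all genes were called lower. Of rod markers 4 of 6 were, Nrl (-0.68), Cnga1 (-0.40), Pde6b (-0.33) and Rom1 (-0.27). Of cone markers 4 of 7 were, Gnat2 (-0.55), Arr3 (-0.54), Opn1mw (-0.44) and Pde6h (-0.32). Of 6 Müller glia markers Vim was higher (0.61) and Glul (-0.44) and Rlbp1 (-0.31) lower. The bipolar marker Prkca was lower (-0.24), 1 of 4 called. The ganglion cell marker Sncg (0.30) was higher, 1 of 5 called, and the microglial marker Cd68 (0.86), 1 of 6 called. The median difference of the ganglion cell list was -0.03 and that of the microglia list 0, so neither list was higher as a whole. Against KO dark in that setting Vim (0.91), Slc1a3 (0.34), Cd68 (0.88), and the endothelial genes Kdr (0.80) and Cldn5 (0.49) were higher, and Glul (-0.65), Prkca (-0.36), Grm6 (-0.28), P2ry12 (-0.26), Lhx1 (-0.26), Tfap2a (-0.24) and Rbpms (-0.21) lower. Of 6 microglia markers 1 was thus higher and 1 lower. Lhx1 was 1 of 3 horizontal, Tfap2a 1 of 4 amacrine and Rbpms 1 of 5 ganglion cell markers. In this comparison with KO dark 6.30% of all genes were called lower. The called rod markers were Nrl (-0.67), Cnga1 and Pde6b, and 6 of 7 cone markers were lower, led by Arr3, Opn1mw (-0.64), Gnat2 (-0.53) and Opn1sw (-0.45). In the difference of the light responses with the exchange 555 of all genes were called in either direction. The marker calls were Nrl (-0.64), Pde6b, Arr3, Prkca (-0.27), Vim (0.48), Cd68 (0.95) and all 6 reactive glia genes. Lcn2 (2.13), Serpina3n (1.91), A2m (1.80) and Edn2 (1.53) led the last. WT light was above WT dark in that setting for Gfap (1.27) and Fgf2 (0.50), 2 of 6 reactive glia markers. So were Kdr (0.47), 1 of 3 endothelial, and Vim (0.43), 1 of 6 Müller glia markers. Onecut1 (-0.36), 1 of 3 horizontal, Best1 (-0.30), 1 of 6 pigment epithelium, and Sncg (-0.21), 1 of 5 ganglion cell markers, were below it. There 880 of the 19937 genes were called in either direction. Both WT groups were the same arrays as labelled, only the common estimate of the spread differing. KO dark was above WT dark for the amacrine marker Tfap2a (0.30), 1 of 4 called, where 175 of all genes were called. In whole retina fewer rods and less RNA per rod cannot be told apart, and the part of these shifts in the results above was not tested. Pigment epithelium genes averaged 7.02 to 8 in KO light, 6.31 to 7.11 in WT light, 7.11 to 7.78 in KO dark and 7.30 to 7.51 in WT dark, with 7.61 in WT dark 4, and their part was not tested either. Dct (1.91, adjusted p = 0.0243) and Tyrp1 (1.71, adjusted p = 0.0123) were called higher in KO light than in WT light with the exchanged array, and Tyrp1 (1.94, adjusted p = 0.0194) without KO light 3. Dct was at 7.81 and 10.55 in KO light 1 and 2 and 8.68 in WT dark 4, against 7.23, 6.63 and 7.46 in WT light. Tyrp1 was at 8.16, 10.30 and 8.53 in those arrays, against 7.40, 6.96 and 7.50 in WT light. KO light 2 was the highest array for both genes. With the exchange these genes were 2 of 6 pigment epithelium genes, and 1 of the 6, Rpe65, had a lower mean. It was at 6.02 and 6.14 in KO light 1 and 2 and 6.97 in WT dark 4, against 7.75, 5.53 and 6.76 in WT light. Best1, a channel gene of that tissue, was the 1 gene of the marker lists called as labelled, lower in WT light than in WT dark (-0.30, SE 0.06, adjusted p = 0.0478).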

How the data were processed

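Each array held the RNA of 1 mouse, both retinae pooled, so n counts mice. The authors deposited linear, normalized probe set intensities from CEL files. The submitters' processing notes name Partek, and the methods name Partek and Bioconductor for the statistics. How the values were summarized and normalized, the software versions and the genome build were not stated in the labels or methods. The authors' normalization had brought the array medians to between 141.1 and 145.65, so a change common to all genes would not be seen. Precision is limited by the number of arrays, and dim probe sets were kept.

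Deposited intensities were taken to log2. Of 34760 probe sets 21640 carried 1 symbol, 1321 several and 11799 none. Averaging those with 1 symbol gave 19937 genes, 954 of them from more than 1 probe set. Using limma 3.58.1 (R 4.3.3), a single model with 4 groups and no covariates was fitted to 12 arrays with empirical Bayes moderation. P-values were adjusted over all genes of a comparison. The thresholds were an adjusted p of 0.05 and ratios of 1.2 and 0.87, for the interaction the adjusted p alone. The script was tested on simulated data. Alternatives were quantile normalization, a filter on the lowest quartile of mean level, variances as measured (the ANOVA of the methods), probe sets singly, only the arrays of the groups compared, WT dark 4 added, the exchanged array, the replicate number as a block, and leaving out each array.

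Named are all members with every array, called genes of the lists as labelled and with the exchange (up to 4 per list and comparison, largest first), defining markers, and the genes nearest in pattern by Pearson r over 13 arrays, leaving out predicted genes, clones and small RNAs. The members, lists and the exchange were chosen with earlier results of these data known. Promoters came from the RefSeq table for GRCm38.p6, without the bases after the start, and none was at hand for Rcvrn, Rgs9bp and Guca1b. Xist is given as a check of the sex labels and Ppargc1a because it is the deleted gene, though it checks no label. As labelled, no marker of cones, bipolar, horizontal, amacrine or ganglion cells, glia, microglia, endothelium or lens was called in any comparison.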

Additional observations from a re-analysis of the deposited data

Results flagged for a closer look

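In 4 of the 9 genes measured, 1 of the 4 WT dark arrays lay farther from the other 3 than Dixon's test allows at the 95% level. For Rgs9bp it was WT dark 4 at 10.70, for Gnb5 WT dark 4 at 12.09 and for Slc24a1 WT dark 4 at 11.02, each below the other WT dark arrays, with gaps of 0.963, 0.921 and 0.88 of the range of the group. For Sag it was WT dark 1 at 12.67, above the others, with a gap of 0.985 of a range that was itself narrow. WT dark 4 was left out of the comparisons as labelled and takes the place of KO light 3 in the exchange. Such a test marks about 1 in 20 groups by chance alone, and 9 genes were looked at, while the same array carried 3 of the 4 marks. What sets it apart was not tested here.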

How the results depend on the processing

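The number of genes called depended on which arrays were taken as KO light. With the exchanged array it was 7 of 9 for KO light vs WT light, 6 for KO light vs KO dark and 3 for the genotype by light interaction, against 1, 0 and 0 as labelled. Leaving out 1 array at a time gave 0 to 6 for KO light vs WT light, 0 to 5 for KO light vs KO dark, 0 to 1 for WT light vs WT dark and 0 to 1 for the interaction, the highest values of the first, second and last without KO light 3. The single calls of Rgs9bp were lost, leaving 0 called, in KO light vs WT light and in WT light vs WT dark with variances as measured, with WT dark 4 added and with the replicate block, and in KO light vs WT light also when only the arrays of these groups were fitted. Quantile normalization, the filter on dim genes and probe sets taken singly changed no call of the 9 genes, and no setting called any of them in KO dark vs WT dark. The labels state no pairing of mice by replicate number. Deviations of same-numbered arrays correlated at -0.192 to 0.22, with 2 of 18 pairs above 0.1. Differently numbered arrays were not compared with these, so a factor shared by number is not excluded. The mean of 4 lens markers was highest in replicate 1 of each group, at 8.61 in KO light, 8.55 in WT light, 8.16 in KO dark and 7.56 in WT dark, and its part was not tested. The block changed no call other than those of Rgs9bp.

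Signs turned only for differences that were not called. With WT dark 4 added, KO dark vs WT dark turned to 0.078 for Rcvrn, 0.007 for Rgs9bp, 0.062 for Gucy2e and 0.066 for Slc24a1, and WT light vs WT dark to 0.034 for Rcvrn. With the exchanged array KO light vs KO dark turned to -0.032 for Grk1 and -0.078 for Rgs9bp. Over the arrays left out in turn the difference ran between -0.01 and 0.035 for Guca1a and between -0.021 and 0.022 for Gucy2e in KO dark vs WT dark, between -0.008 and 0.029 for Sag in KO light vs KO dark, and in the interaction between -0.084 and 0.004 for Sag and between -0.214 and 0.048 for Rcvrn. The cause of these changes was not tested. Groups of 3 arrays and small differences limit what could be seen, and background per probe set is not given.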
